A study of Mus musculus with 27 samples.

Results

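The heat shock chaperones described here are 10 genes, found by their symbols among the 56941 genes of the deposited tables: Hspa1a, Hspa1b, Hsph1, Dnajb1, Hspb1, Hspa8, Hsp90aa1, Hspe1, Hspd1 and Bag3. All 10 were present once and all 10 passed the filter on low counts, which 24629 genes passed in all. Their transcripts were measured by RNA sequencing with polyA selection in whole, flash-frozen lungs of 27 male wild-type C57Bl/6J mice of 7 to 8 weeks, killed by isoflurane overdose. HDM_CP mice (n = 7) received 5 oropharyngeal instillations of 10 µg of house dust mite extract (HDM) in 50 µl, an allergen that produces asthma-like inflammation in mice, and 24 h later 100 µl of combustion products (CP) at 2 mg/ml in saline. The CP came from burned paper, plastic and plywood. HDM_SAL mice (n = 6) received HDM and then saline, PBS_CP mice (n = 7) received phosphate-buffered saline (PBS) and then CP, and PBS_SAL mice (n = 7) received PBS and then saline. All lungs were taken 24 h after the last instillation, so every group, controls included, had the same number of instillations. Libraries are called by group and labelled number, and nothing in the labels says that a library pools several mice.

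Chaperones bind unfolded or partly folded proteins and help them to fold, to move or to be degraded. When unfolded proteins accumulate, for example after heat, oxidants or arsenite, heat shock factor 1 (HSF1) forms trimers, binds inverted repeats of the bases GAA known as heat shock elements, and switches on a set of chaperone genes within minutes to hours. Some of these genes are nearly silent until then (the inducible HSP70 genes Hspa1a and Hspa1b). Others, such as Hspa8 and Hspd1, are expressed at a high level in every cell and rise less in proportion. In the lung chaperones are made in epithelium, endothelium, muscle and leukocytes. In whole-lung RNA, fewer cells of a type and less RNA per cell cannot be told apart.

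Totals of the deposited estimated counts ran from 56349532 to 84451943 per library, and mitochondrial genes took 2.08% to 3.86% of them. The library numbers form 3 runs, 45 to 64, 66 to 81 and 96 to 105, each with libraries of all 4 groups. The labels do not say that they are batches, and values within each run are given beside the results that they touch. The 3 smallest totals belong to PBS_CP 102, PBS_SAL 104 and PBS_SAL 105, all of the last run. Of the markers listed for lung cell types none of the 6 for alveolar type 2 epithelium was at 0 in every library, and their summed level was 27800 to 36700 TPM in the 27 libraries. TPM is a level scaled by transcript length and library total that can be compared between genes. Log2 fold changes carry a standard error, and a gene is said to have risen or fallen where edgeR's quasi-likelihood test gave a Benjamini-Hochberg adjusted p under 0.05 over all 24629 genes.

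The sequences before the transcription starts are shown first, since heat shock elements there are what the genes are known to share. The RefSeq table of promoter windows (GRCm38.p6 build, 250 bases before to 50 after a start) held 11 windows of 8 of the 10 genes. Hspa8 and Hsp90aa1 were not in it. A 2-unit element was searched as GAANNTTC or TTCNNGAA, where N is any base, and a 3-unit element as GAANNTTCNNGAA or TTCNNGAANNTTC, on both strands. A 3-unit match holds a pair of overlapping 2-unit matches. Among all 32851 windows 15.1% held at least 1 2-unit match and 0.603% a 3-unit match. By gene, with a match in any of its windows, the shares were 17.0% and 0.662% of 27025 genes. Of the 8 genes 7 held a 2-unit match and 3 a 3-unit match, and Dnajb1 held none in either of its windows. Hspe1 and Hspd1 hold their 3-unit matches in the same bases. A match is a description of the letters and not a measured binding site.

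Hspa1a and Hspa1b are neighbours on chromosome 17 and are shown whole up to the start, with the 2-unit match at 104 to 97 bases before the start in capitals (chr17:34972157-34972406 and chr17:34959239-34959488, minus strand).
Hspa1a: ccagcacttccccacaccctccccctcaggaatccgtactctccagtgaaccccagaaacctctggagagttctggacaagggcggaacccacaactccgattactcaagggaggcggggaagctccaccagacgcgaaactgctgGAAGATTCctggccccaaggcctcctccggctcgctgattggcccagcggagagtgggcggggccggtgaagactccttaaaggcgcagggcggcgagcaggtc
Hspa1b: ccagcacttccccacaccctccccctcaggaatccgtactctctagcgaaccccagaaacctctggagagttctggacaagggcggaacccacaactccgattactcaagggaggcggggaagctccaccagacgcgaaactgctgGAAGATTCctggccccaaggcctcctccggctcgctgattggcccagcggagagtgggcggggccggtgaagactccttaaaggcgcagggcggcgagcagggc
Counted from 1 at the 5′ end, with the base of Hspa1a first, they differ by C44T, T47C and T249G in this stretch and by C276T after the start, 4 of 300 bases. Their longest open reading frames, 1926 bases in Hspa1a and 1929 in Hspa1b (GENCODE M21 transcripts), are identical in 99.4% of aligned columns with an identical stretch of 638 bases, far longer than a read of 150 bases. Reads can therefore be shared between them in the authors' counting, and they are not independent measurements.

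The remaining matches are shown as short stretches, again with matches in capitals. Hspe1 and Hspd1, which encode the mitochondrial chaperonin HSP10 and HSP60, lie head to head on chromosome 1. The stretch shown lies between the start of Hspe1 and the second start of Hspd1, which is 216 bases away. It holds the 3 overlapping 2-unit matches that both windows share (chr1:55088038-55088097, plus strand, 110 to 51 bases before the Hspe1 start). The first Hspd1 start has no match in its window. On GRCm39, Hspd1 (55116994 to 55127402, minus strand) and Hspe1 overlap at their starts, and since use of strand in the counting is not stated, reads there may be assigned to either. In Hspb1 there were 2 matches upstream (chr5:135887794-135887838, plus strand). In Hsph1 a single match lies upstream, and a 3-unit match at 37 to 49 bases after its first start is shown (chr5:149636287-149636305, minus strand). Bag3 held 1 match, at 43 to 50 bases after the start.
Hspe1: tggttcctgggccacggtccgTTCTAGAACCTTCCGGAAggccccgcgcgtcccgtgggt
Hspb1: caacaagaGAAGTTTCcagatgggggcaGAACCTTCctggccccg
Hsph1: gcagaTTCTGGAAAGTTCt

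**Figure D1:**
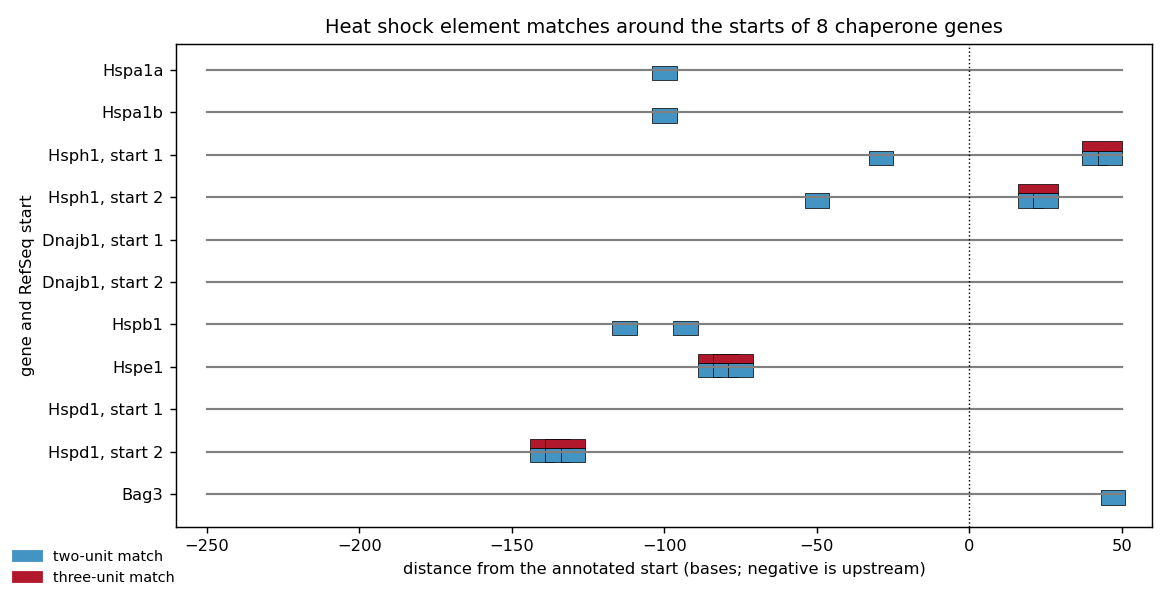
Positions of 2-unit (blue) and 3-unit (red) heat shock element matches in the 11 RefSeq windows of 8 chaperone genes, with the distance from the annotated start in bases on the x axis and 1 row per start. Matches of Hspe1 and of the second start of Hspd1 are the same bases seen from both strands, and both windows of Dnajb1 are empty.

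Levels per transcript length spanned a wide range. Hspa8, the constitutive HSC70, had the highest mean over the 27 libraries at 679.9 ± 107.2 TPM (SD), and lay above Hsp90aa1, the inducible form of cytosolic HSP90, at 289.8 ± 60.05 TPM, in 27 of 27 libraries. Hspb1, the small heat shock protein HSP25, followed at 211.9 ± 90.31 TPM and was below Hsp90aa1 in 25 of 27. Hspe1 averaged 103.9 ± 15.70 TPM and Hspd1 90.03 ± 7.43 TPM, with Hspe1 above Hspd1 in 23 of 27. Among the remaining 5 genes, neighbours in the order of means overlapped. Hspa1b averaged 56.87 ± 53.92, Bag3 53.00 ± 3.97, Hspa1a 49.18 ± 47.64, Hsph1 34.92 ± 9.78 and Dnajb1 31.07 ± 5.36 TPM. Hspa1b exceeded Bag3 in 9 of 27 libraries, Hspa1a exceeded Hsph1 in 13 and Hsph1 exceeded Dnajb1 in 15.

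The chaperones differed in how much they varied between mice of a group. The within-group SD of log2 CPM, counts scaled to the library total, was 1.05 for Hspa1a and 1.06 for Hspa1b, at percentiles 90.6 and 90.9 of all tested genes. It was 0.50 for Hspb1, 0.32 for Hsph1, 0.24 for Hsp90aa1, 0.21 for Dnajb1, 0.20 for Hspa8 and 0.16 for Hspe1. Hspd1, at 0.09, and Bag3, at 0.07, lay at percentiles 9.74 and 2.83. The median SD over the 6735 tested genes whose mean log2 CPM reached 5 was 0.11. Hspa1a varied 17.8-fold between the lowest and the highest of the 27 libraries, Hspb1 4.06-fold, Hspa8 1.91-fold and Bag3 1.40-fold. The inducible HSP70 genes had the largest within-group SD of the 10 and Bag3 the smallest. Bag3 is a co-chaperone that hands HSP70 clients to autophagy.

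**Figure D2:**
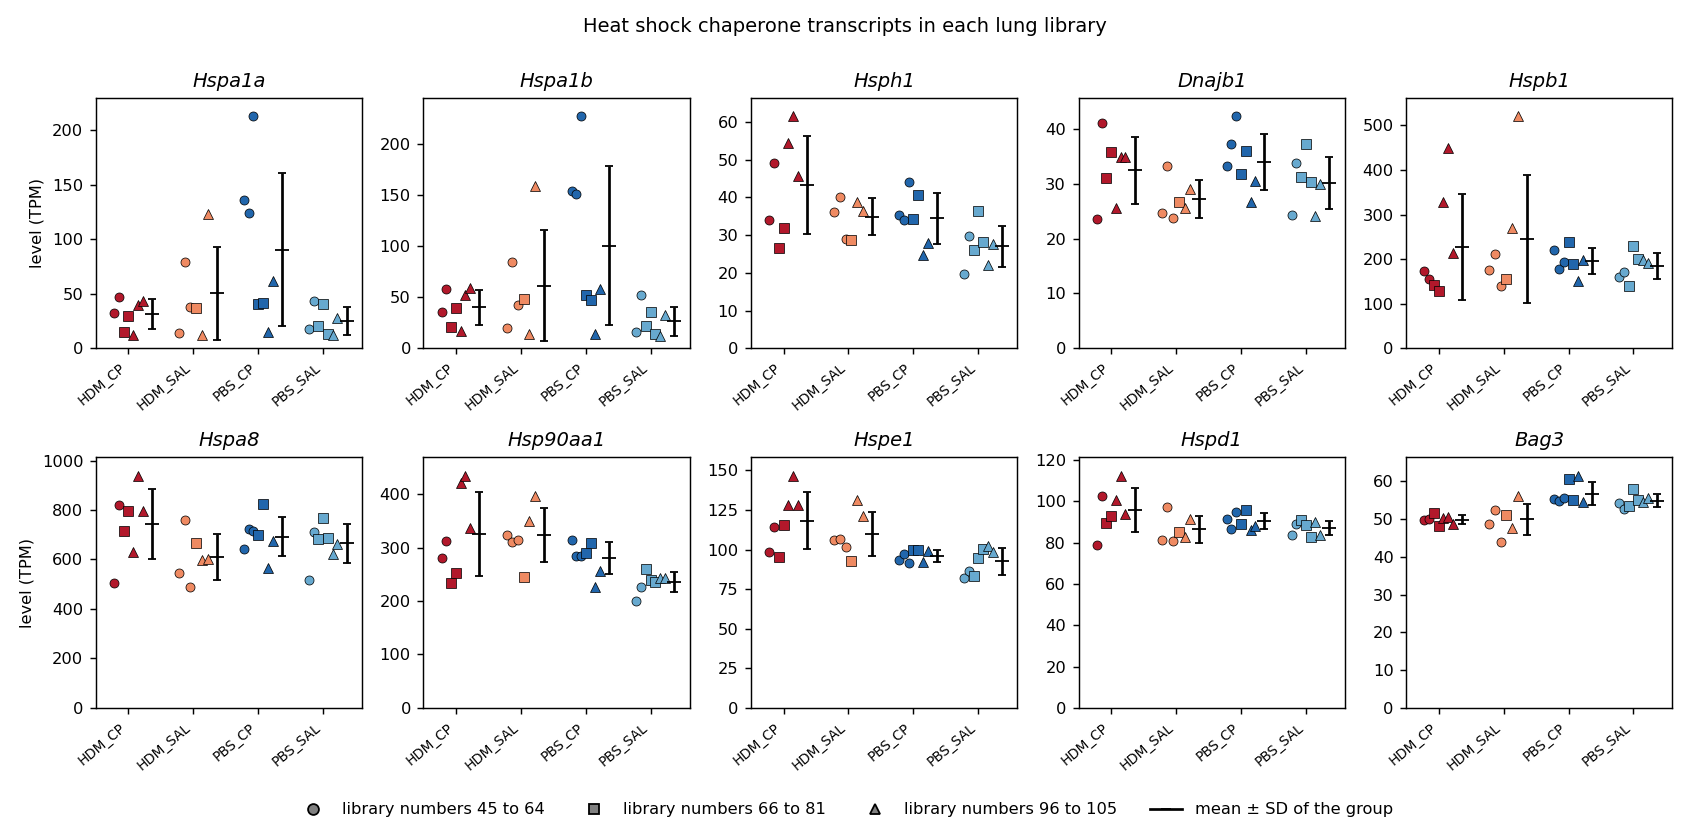
Level in TPM (y axis, from 0) of each of the 10 chaperones in each library, by group on the x axis, with the mean and SD of the group as error bars and the symbol giving the run of library numbers. PBS_CP libraries 57, 58 and 59 and HDM_SAL 100 stand high for Hspa1a and Hspa1b, while HDM_CP 96, HDM_CP 97 and HDM_SAL 100 stand high for Hspb1.

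The inducible HSP70 genes gave the largest differences between groups, without passing the test. Hspa1a (GRCm39, chromosome 17, 35188166 to 35191132, minus strand) ran from 11.94 to 46.60 TPM with a median of 32.72 in HDM_CP lungs, and from 12.08 to 122.8 with a median of 37.38 in HDM_SAL lungs. It ran from 15.11 to 212.8 TPM with a median of 61.43 in PBS_CP lungs, against 12.52 to 43.19 with a median of 20.10 in PBS_SAL lungs. The high values belonged to few libraries, and all 4 groups overlapped. PBS_CP libraries 57, 58 and 59 had 136.0, 124.3 and 212.8 TPM and HDM_SAL 100 had 122.8, whereas the other 23 libraries had 78.9 TPM or less.

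By group mean over all libraries, Hspa1a and Hspa1b were highest in PBS_CP lungs. Hspa1a averaged 90.19 ± 70.27 TPM in PBS_CP lungs and 25.05 ± 12.66 TPM in PBS_SAL lungs, and the log2 fold change was 1.84 ± 0.54. Its p ranked 124 among 24629 genes in edgeR, with adjusted p = 0.503. Hspa1b (chromosome 17, 35175412 to 35178214, minus strand) averaged 100.5 ± 77.47 TPM in PBS_CP lungs and 26.15 ± 14.65 TPM in PBS_SAL lungs, with a log2 fold change of 1.94 ± 0.55 and adjusted p = 0.437. Within the first run Hspa1a averaged 157.7 TPM in 3 PBS_CP libraries and 30.5 TPM in 2 PBS_SAL libraries, a log2 difference of 2.46. The log2 difference was 0.88 in the second run and 0.71 in the third, and the log2 fold change was 0.80 with the first run left out. PBS_CP was not highest in every run. In the third run 2 HDM_SAL libraries averaged 67.45 TPM of Hspa1a and 2 PBS_CP libraries 38.27 TPM. For Hspa1b these means were 86.81 and 35.87 TPM. HDM_SAL means of Hspa1a were 43.58 TPM in the first run and 36.77 TPM (1 library) in the second, where PBS_CP averaged 40.86 TPM.

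In the same comparison Hsph1, the HSP110 that exchanges nucleotide on HSP70, had a log2 fold change of 0.34 ± 0.16 (adjusted p = 0.897). Its level was 34.44 ± 6.71 TPM in PBS_CP lungs and 27.09 ± 5.43 TPM in PBS_SAL lungs. Hsp90aa1 stood at 0.24 ± 0.12 (adjusted p = 0.922) and Dnajb1, the HSP40 that delivers clients to HSP70, at 0.16 ± 0.11 (adjusted p = 1). The other 5 members lay between 0.04 and 0.08. All 10 fold changes were positive, with a median of 0.12 against 0.002 over all genes, where 50.7% were positive. None of the 10 was called by edgeR, by DESeq2 or by limma on log2(TPM + 1), and 3 of the 10 had an unadjusted p under 0.05, as had 5.45% of all genes. Of all genes 0.00812% were called, which were 2 genes. Since the members vary together, 10 positive signs are not 10 observations.

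After allergen, Hspa1a and Hspa1b were lower on average with CP than without, again without passing the test. Hspa1a averaged 31.26 ± 13.60 TPM in HDM_CP lungs (SD, n = 7) and 50.40 ± 42.89 TPM in HDM_SAL lungs (SD, n = 6), a log2 fold change of -0.71 ± 0.55 (edgeR adjusted p = 0.736). For Hspa1b it was -0.64 ± 0.55. Without HDM_SAL 100 the fold changes were -0.23 and -0.09. Hspa8, which folds clients in every cell and pulls clathrin coats apart, had the smallest p of the members (edgeR adjusted p = 0.426). It averaged 742.6 ± 141.8 TPM in HDM_CP lungs and 609.8 ± 93.81 TPM in HDM_SAL lungs, a log2 fold change of 0.24 ± 0.10 with overlapping groups. Hsph1 was at 0.30 ± 0.16 and Dnajb1 at 0.21 ± 0.11. The median over the members was 0.01 and over all genes -0.001, and 5 of 10 were positive. No member was called by edgeR, DESeq2 or limma, 1 had an unadjusted p under 0.05, and 0.00406% of all genes were called. Of all genes 9.70% had an unadjusted p under 0.05.

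The CP response of the HSP70 genes was compared between allergic and non-allergic mice by the interaction of both factors. It was -2.55 ± 0.77 for Hspa1a and -2.58 ± 0.78 for Hspa1b, with edgeR adjusted p = 0.742 for each. They ranked 88 and 89 among 24629 genes. The interaction called 0 genes in all (0%), and 2 of the 10 members had an unadjusted p under 0.05, these same paralogs, as had 6.38% of all genes. DESeq2 and limma called no member either. Averaged over HDM and PBS mice, the CP effect was 0.32 ± 0.12 for Hsph1 (edgeR adjusted p = 0.359), 0.19 ± 0.08 for Dnajb1 (adjusted p = 0.460) and 0.15 ± 0.07 for Hspa8 (adjusted p = 0.538). These 3 were the members with an unadjusted p under 0.05, as had 8.84% of all genes. None was called by edgeR, DESeq2 or limma, and 0.0487% of all genes were called.

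**Figure D3:**
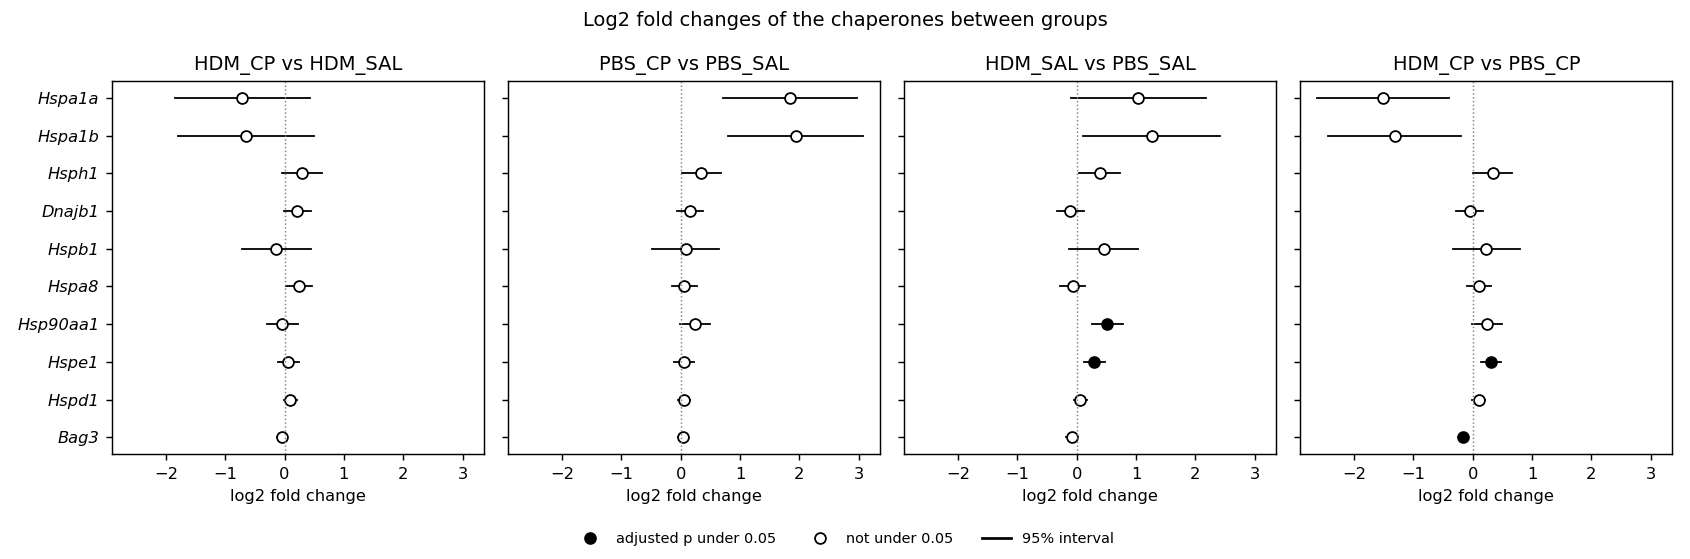
Log2 fold change (x axis) of each chaperone in the 4 comparisons of groups, with the 95% interval as a line and filled points where edgeR's adjusted p was under 0.05. Filled points are Hsp90aa1 and Hspe1 in HDM_SAL against PBS_SAL, and Hspe1 and Bag3 in HDM_CP against PBS_CP, while the intervals of Hspa1a and Hspa1b are the widest in each comparison.

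Without CP, 2 of the 10 chaperones rose with allergen and none fell. Hsp90aa1 (chromosome 12, 110657039 to 110669162, minus strand), which matures kinases and steroid receptors, ran from 244.6 to 397.2 TPM with a median of 318.8 in HDM_SAL lungs, against 200.7 to 259.3 with a median of 240.1 in PBS_SAL lungs. Of 6 HDM_SAL libraries 5 lay above every PBS_SAL library, and HDM_SAL 72 did not. The log2 fold change was 0.52 ± 0.12 (edgeR adjusted p = 0.0141). Hspe1 (chromosome 1, 55127291 to 55130466, plus strand), the lid of the chaperonin ring, ran from 92.91 to 131.3 TPM with a median of 106.2 in HDM_SAL lungs and from 82.12 to 102.4 with a median of 94.60 in PBS_SAL lungs, and rose by 0.30 ± 0.09 (adjusted p = 0.0385). Its groups overlapped. The call of Hspe1 was lost when any of 8 libraries was left out (HDM_SAL 50, 54, 99 or 100, PBS_SAL 61, 64, 79 or 80), with adjusted p up to 0.147, whereas that of Hsp90aa1 held with each of the 27 left out. Without the first run neither was called. Hspe1 also lost its call without the second run and without the third, where Hsp90aa1 alone was called. The same held with only the groups compared and with limma on log2(TPM + 1) or log2(TPM + 0.1).

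Called genes made up 5.44% of all genes in this comparison, 3.19% higher and 2.25% lower, beside 2 of 10 members. The median log2 fold change of the members was 0.34 against 0.01 over all genes. Hspb1 averaged 245.2 ± 142.7 TPM in HDM_SAL lungs and 184.1 ± 29.63 TPM in PBS_SAL lungs (0.46 ± 0.28, adjusted p = 0.394). Hsph1 was at 0.39 ± 0.16 (adjusted p = 0.178), Hspa1b at 1.27 ± 0.56 (adjusted p = 0.20) and Hspa1a at 1.04 ± 0.55 (adjusted p = 0.299). Without HDM_SAL 100 the log2 fold changes of Hspb1, Hspa1b and Hspa1a were 0.09, 0.71 and 0.55. Hspd1, the partner of Hspe1, was at 0.06 ± 0.05 (adjusted p = 0.581), Bag3 at -0.09 ± 0.04 (adjusted p = 0.267), Dnajb1 at -0.10 ± 0.11 and Hspa8 at -0.07 ± 0.10. This comparison shares its PBS_SAL libraries with that of PBS_CP and PBS_SAL, so their values are not independent. Within runs Hsp90aa1 differed by 0.66 in the first, by -0.03 in the second, which holds 1 HDM_SAL library, and by 0.69 in the third.

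Cell type markers moved in the same comparison. All 6 cycling cell markers rose in HDM_SAL lungs, with a summed level of 37.7 to 89.2 TPM in HDM_SAL and 16.3 to 30.4 TPM in PBS_SAL lungs. Of 6 alveolar macrophage markers 2 rose, with a median log2 fold change of -0.20 over the 6, and their sum was 1380 to 3050 TPM in HDM_SAL and 264 to 661 TPM in PBS_SAL lungs. Of 6 fibroblast markers 3 fell, with sums of 2760 to 3950 and 4320 to 5560 TPM in these groups. Of 7 club and goblet markers 4 rose, with a median log2 fold change of 1.74 and sums of 72600 to 138000 TPM in HDM_SAL and 73800 to 102000 TPM in PBS_SAL lungs. Of 6 smooth muscle and pericyte markers 2 rose and 2 fell, with sums of 557 to 809 TPM in HDM_SAL and 455 to 664 TPM in PBS_SAL lungs. Of 6 markers each, 1 rose for alveolar type 2 epithelium, 1 for recruited macrophages and monocytes and 1 for neutrophils. No marker of these lists was at 0 in every library, and their part in the levels of Hsp90aa1 and Hspe1 was not tested.

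Among CP-exposed lungs, Hspe1 rose and Bag3 fell with allergen. Hspe1 ran from 95.49 to 146.6 TPM with a median of 115.6 in HDM_CP lungs, against 91.47 to 99.54 with a median of 97.22 in PBS_CP lungs. The log2 fold change was 0.31 ± 0.08 (edgeR adjusted p = 0.0190). Of 7 HDM_CP libraries 5 lay above every PBS_CP library, and without HDM_CP 97 the adjusted p was 0.0586. Bag3 (chromosome 7, 128125340 to 128148705, plus strand) ran from 48.17 to 51.54 TPM with a median of 50.16 in HDM_CP lungs, and from 54.51 to 61.51 with a median of 55.37 in PBS_CP lungs. These groups did not overlap, as held for 1.43% of all genes tested, and Bag3 fell with a log2 fold change of -0.17 ± 0.04 (adjusted p = 0.0103). Its within-run differences were -0.07, -0.24 and -0.21, and its adjusted p was at most 0.0342 with 1 library left out.

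Of all genes 7.87% were called in this comparison, 5.60% higher and 2.27% lower. Hspa1a averaged 31.26 ± 13.60 TPM in HDM_CP lungs and 90.19 ± 70.27 TPM in PBS_CP lungs, a log2 fold change of -1.51 ± 0.54 (edgeR adjusted p = 0.0916). DESeq2 gave it an adjusted p of 0.0251, and edgeR gave 0.0476 with PBS_CP 101 left out. For Hspa1b it was -1.31 ± 0.54 (adjusted p = 0.154). Without the first run these values were -0.53 and -0.22. The remaining members had values of 0.34 ± 0.16 for Hsph1 (adjusted p = 0.219), 0.24 ± 0.12 for Hsp90aa1 (adjusted p = 0.260), 0.23 ± 0.27 for Hspb1, 0.11 ± 0.10 for Hspa8, 0.10 ± 0.05 for Hspd1 and -0.05 ± 0.11 for Dnajb1.

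Several of these differences were largest in the last run of library numbers. Within it Hspb1 averaged 330.3 TPM in 3 HDM_CP libraries and 174.3 TPM in 2 PBS_CP libraries, a log2 difference of 0.87, whereas the difference was -0.19 in the first run and -0.68 in the second. Hsph1 differed by 1.07 in the last run, by 0.11 in the first and by -0.38 in the second. Hsp90aa1 differed by 0.73, 0.10 and -0.31 in the same order of runs. With the last run left out, the log2 fold changes became -0.42 for Hspb1, -0.11 for Hsph1 and -0.09 for Hsp90aa1, and neither Hspe1 (0.15, adjusted p = 0.403) nor Bag3 (-0.15, adjusted p = 0.162) was called. With the second run left out, Bag3 was not called either (-0.14, adjusted p = 0.126), whereas Hsph1 (0.58, adjusted p = 0.0460) and Hsp90aa1 (0.43, adjusted p = 0.0352) were. In HDM_SAL against PBS_SAL, Hspb1 likewise differed by 1.00 in the last run and by 0.16 and -0.30 in the others. The part of the runs in these results cannot be told apart from the mice that they hold.

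Marker sums also differed among the CP-exposed lungs. Alveolar macrophage markers summed to 1570 to 5500 TPM in HDM_CP and 307 to 668 TPM in PBS_CP lungs, with 1 of 6 higher and 1 lower. Only 2 of the 6 had a positive log2 fold change, and the median over the 6 was -0.04, so the sum does not describe the list. Recruited macrophage and monocyte markers, of which 4 of 6 rose, summed to 289 to 506 TPM in HDM_CP and 229 to 295 TPM in PBS_CP lungs, and 6 of 6 cycling cell markers rose. Of 6 neutrophil markers 2 rose, with sums of 157 to 645 TPM in HDM_CP and 133 to 282 TPM in PBS_CP lungs, and 2 of 4 measured eosinophil markers rose, with sums of 7.22 to 32.2 and 6.81 to 14.1 TPM. Club and goblet markers, with 3 higher and 1 lower of 7, summed to 44000 to 116000 TPM in HDM_CP and 75900 to 96900 TPM in PBS_CP lungs. Fibroblast markers summed to 1950 to 4260 TPM in HDM_CP lungs and 3740 to 4810 TPM in PBS_CP lungs, with 2 lower and 1 higher of 6. Smooth muscle and pericyte markers, of cells in which Bag3 has a known role in filament turnover, had no member called and summed to 612 to 934 and 432 to 728 TPM. Of 6 markers each, 2 fell for alveolar type 1 and 1 for ciliated epithelium, and 1 rose for alveolar type 2 epithelium and 1 for endothelium. Siglecf stands in both the alveolar macrophage and the eosinophil list. Whether these shifts bear on Hspe1 and Bag3 was not tested.

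Pooled over the groups, many chaperones varied together across mice of the same group. Deviations from the group means of log2 CPM were correlated over the 27 libraries. Of the 45 pairs 16 passed an adjusted permutation p of 0.05, all of them positive. The share of such pairs among other genes was not computed, so the count cannot be called particular to chaperones. Hspa1a and Hspa1b gave r = 0.99 and rho = 0.99 (permutation p = 1e-05 for each, the smallest that the permutations can give). Dnajb1 varied with Hspa8 (r = 0.81, rho = 0.80, adjusted permutation p = 0.0003 and 0.00045) and with Hspa1a (r = 0.65, rho = 0.65, adjusted permutation p = 0.0009 and 0.0027). Hsp90aa1 varied with Hspb1 (r = 0.77, rho = 0.68, adjusted permutation p = 0.00129 and 0.00405) and with Hspe1 (r = 0.77, rho = 0.69, adjusted permutation p = 0.00081 and 0.0027). Without the 2 libraries farthest from the median of the first gene of a pair, r was 0.79 for Dnajb1 and Hspa8, 0.60 for Hspa1a and Dnajb1, 0.72 for Hspb1 and Hsp90aa1 and 0.65 for Hsp90aa1 and Hspe1.

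Hsph1 passed with 6 of the other 9 members, namely Dnajb1 (r = 0.58), Hspa8 (0.62), Hspb1 (0.62), Hspe1 (0.61), Hspd1 (0.73) and Hsp90aa1 (0.76). It did not pass with Hspa1a (0.35), Hspa1b (0.39) or Bag3 (-0.01). Hspa1a did not pass with Hspb1 (r = 0.20, rho = 0.14) or Hsp90aa1 (r = 0.13, rho = -0.02). Hspe1 and Hspd1, which share the 3 matches shown above, gave r = 0.56 and rho = 0.39 (adjusted permutation p = 0.0294 and 0.178), and r was 0.34 without the 2 farthest libraries. Bag3 passed with no member, and its highest value was with Hspb1 (r = 0.44). Of the 16 pairs 14 were positive within each of the 3 runs, and the exceptions were Hspb1 with Hspe1 (-0.20 in the first run) and with Hspd1 (-0.03). Hspb1 with Hsp90aa1 had r = 0.16 in the first run, 0.74 in the second and 0.90 in the third. Within single groups some pairs differed. Hspb1 with Hsp90aa1 had r = 0.94 in HDM_CP, 0.69 in HDM_SAL, 0.73 in PBS_CP and 0.06 in PBS_SAL lungs. In the same order Hspe1 with Hspd1 had 0.85, 0.34, 0.48 and 0.003, and Dnajb1 with Hspa8 had 0.86, 0.75, 0.71 and 0.90. Each group holds 6 or 7 libraries, and these differences in r were not tested.

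**Figure D4:**
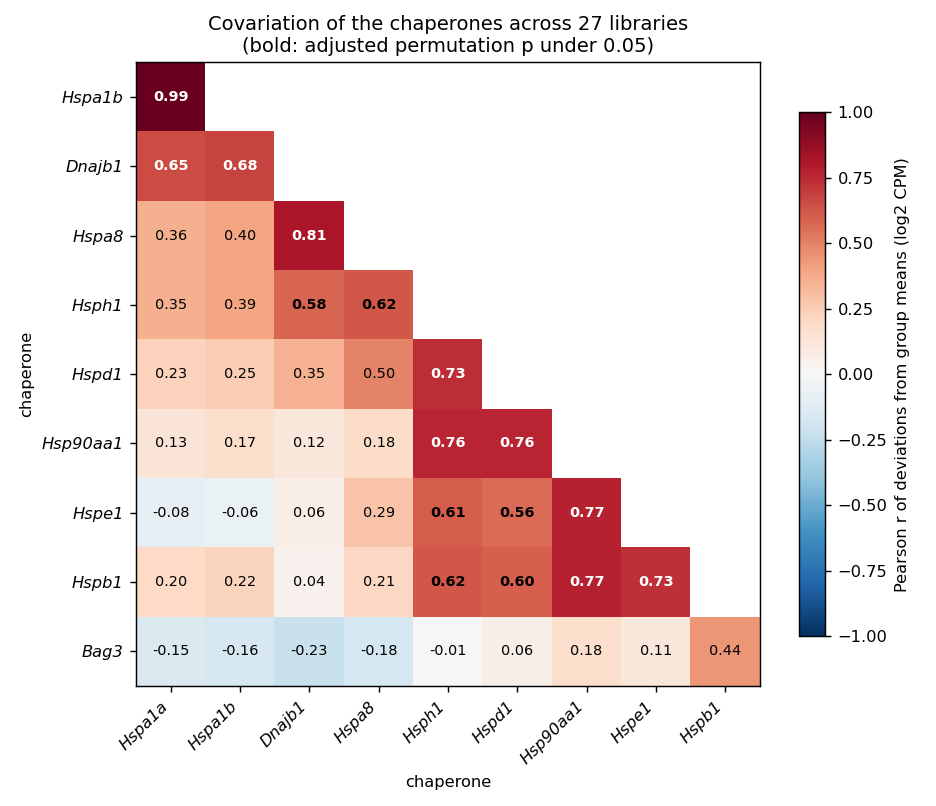
Pearson r of the deviations from group means (log2 CPM, 27 libraries) for all 45 pairs of chaperones, with colour from -1 to 1 and bold figures where the adjusted permutation p was under 0.05. The HSP70 paralogs, Dnajb1 and Hspa8 sit at the upper left, Hspd1, Hsp90aa1, Hspe1 and Hspb1 towards the lower right, and Bag3 in the bottom row has no bold value.

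Individual libraries show how the chaperones part. HDM_CP 96 had 327.9 TPM of Hspb1 and 421.7 TPM of Hsp90aa1 with 11.94 TPM of Hspa1a, the lowest Hspa1a level of all 27. HDM_CP 97 had the highest Hspa8 (938.2 TPM), Hsph1 (61.5 TPM), Hspe1 (146.6 TPM) and Hspd1 (112.4 TPM) of the 27, with 39.7 TPM of Hspa1a. PBS_CP 59 had the highest Hspa1a (212.8 TPM) and Dnajb1 (42.3 TPM), with 194.5 TPM of Hspb1, near that gene's median. HDM_SAL 100 was high in both Hspa1a (122.8 TPM) and Hspb1 (520.8 TPM), and had 36.3 TPM of Hsph1.

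**Figure D5:**
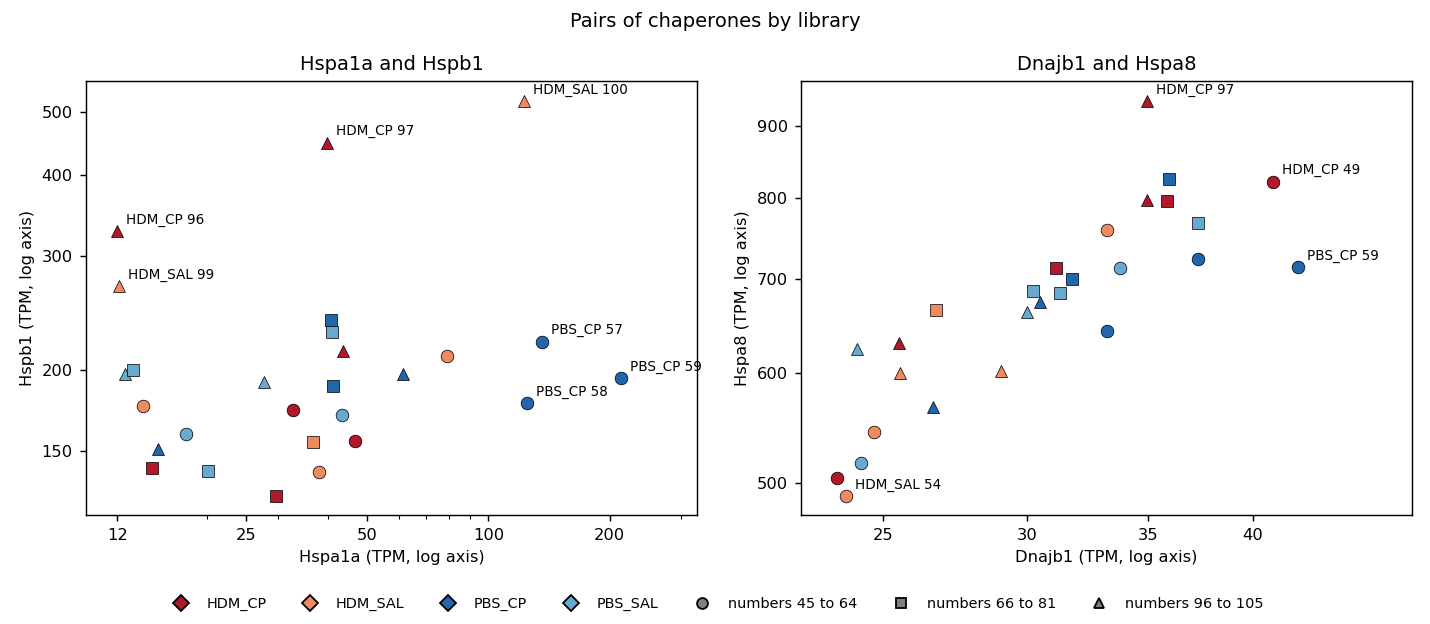
Level of Hspb1 against Hspa1a (left) and of Hspa8 against Dnajb1 (right) in the 27 libraries, in TPM on log axes, with colour for the group and symbol for the run of library numbers. On the left the libraries high in Hspa1a (PBS_CP 57, 58 and 59) and those high in Hspb1 (HDM_CP 96 and 97) are different ones except for HDM_SAL 100, while on the right the points follow a band.

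The genes most like a member were sought outside the 10 chaperones, by Pearson r of the same deviations among 14824 genes whose mean log2 CPM reached 1. The 5 highest are given as a description, and the members' own r values, some of them higher, stand above. For Hspa1a they were Rbm12b2 (r = 0.80), Gm42658 (0.78), Nfatc2ip (0.70), Ccnt1 (0.69) and Gm26621 (0.69). For Hsph1 they were Hsp90ab1 (0.78), which encodes the constitutive form of HSP90, Stip1 (0.77), which encodes the co-chaperone HOP that joins HSP70 to HSP90, Pde4b (0.76), Il1b (0.74) and the pseudogene Gm12346 (0.72). For Hspd1 they were Lman2l (0.76), Hspa5 (0.73), the HSP70 of the endoplasmic reticulum, Fkbp4 (0.73), an immunophilin that binds HSP90, Stip1 (0.73) and Hsp90ab1 (0.72).

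Of 4 genes of heat shock factors and their binding protein, edgeR called 1 in each allergen comparison. DESeq2 and limma voom called 2 in HDM_CP against PBS_CP. Of all genes edgeR called 5.44% in HDM_SAL against PBS_SAL and 7.87% in HDM_CP against PBS_CP. Hsf4, a factor known mainly from the lens, fell in HDM_SAL against PBS_SAL (-0.33 ± 0.09, adjusted p = 0.0333) and in HDM_CP against PBS_CP (-0.37 ± 0.09, adjusted p = 0.00826). Hsf4 averaged 13.88 ± 1.75 TPM in HDM_CP, 15.09 ± 1.19 in HDM_SAL, 18.13 ± 2.15 in PBS_CP and 19.79 ± 1.90 in PBS_SAL lungs. Hsf1, which drives the response by a change of state and not mainly of its transcript, averaged 50.42 ± 1.80 TPM in HDM_CP, 49.83 ± 5.81 in HDM_SAL, 57.07 ± 4.25 in PBS_CP and 53.96 ± 3.57 in PBS_SAL lungs and was not called by edgeR in any comparison. In HDM_SAL against PBS_SAL the call of Hsf4 was lost with the runs as a covariate and when any of 8 libraries was left out. Its adjusted p was up to 0.093 with 1 library left out and up to 0.382 over the other settings. In HDM_CP against PBS_CP it was lost without the second run (adjusted p = 0.157).

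Of 20 other genes known to be induced by heat or to act with the inducible chaperones, Stip1 rose (0.27 ± 0.08, adjusted p = 0.0252) and Dnajb4, an HSP40 gene, fell (-0.27 ± 0.07, adjusted p = 0.0159) in HDM_CP against PBS_CP. Dedd2, which acts in cell death, fell in HDM_SAL against PBS_SAL (-0.29 ± 0.08, adjusted p = 0.0374), and none of the 20 was called in the CP comparisons. The call of Stip1 was lost when any of 4 libraries was left out (adjusted p up to 0.0748), and that of Dedd2 when any of 8 was (up to 0.111). That of Dnajb4 was lost without any 1 of the runs (up to 0.163). Over the other settings, DESeq2, limma and runs left out among them, the adjusted p reached 0.527 for Stip1 and 0.184 for Dedd2. Without the last run the log2 fold change of Stip1 in HDM_CP against PBS_CP was 0.12. The list medians were 0.03 in HDM_CP against PBS_CP and 0.06 in HDM_SAL against PBS_SAL. In these comparisons edgeR called 7.87% and 5.44% of all genes. Of 15 co-chaperone genes Fkbp5, a glucocorticoid-induced immunophilin (-0.58 ± 0.14, adjusted p = 0.0110), and Cdc37, which brings kinases to HSP90 (-0.13 ± 0.04, adjusted p = 0.0408), fell in HDM_SAL against PBS_SAL, with none called in HDM_CP against PBS_CP, where Unc45a stood at -0.11 ± 0.05 and Fkbp5 at 0.27 ± 0.13. The call of Cdc37 was lost when any of 9 libraries was left out (adjusted p up to 0.125). That of Fkbp5 was lost without the first or the second run (up to 0.339). Over the other settings the adjusted p of Cdc37 reached 0.887.

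Chaperones of the endoplasmic reticulum answer mainly to the unfolded protein response. Of 14 measured genes 9 rose in HDM_CP against PBS_CP and none fell, beside 5.60% of all genes called higher and 2.27% lower. Their median log2 fold change was 0.26, against 0.002 over all genes and 0.10 over the 10 heat shock chaperones. The 4 with the smallest p were Sdf2l1 (1.03 ± 0.14, adjusted p = 3.6e-05), Pdia4 (0.34 ± 0.06, adjusted p = 0.00127), Hspa5 (0.34 ± 0.08, adjusted p = 0.00706) and Dnajb11 (0.25 ± 0.06, adjusted p = 0.00835). In HDM_SAL against PBS_SAL 3 rose, Sdf2l1 (0.77 ± 0.14, adjusted p = 0.00163), Pdia6 (0.32 ± 0.08, adjusted p = 0.0233) and Pdia4 (0.23 ± 0.07, adjusted p = 0.0389). There 3.19% of all genes were called higher. In the comparison among CP-exposed lungs 6 rose without HDM_CP 97, 1 without the first run and 2 without the last. As many as 9 rose in HDM_SAL against PBS_SAL without HDM_SAL 72, 5 without HDM_SAL 54, 1 without any 1 of HDM_SAL 50, 99 and 100 and PBS_SAL 61, 64 and 80, and 0 without the first run.

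The other groups of protein quality genes, and the immediate early genes, had no called member in either allergen comparison by edgeR. That was so in HDM_SAL against PBS_SAL for 8 cytosolic chaperonin (TRiC) genes, 12 mitochondrial protease and chaperone genes, 5 small heat shock protein genes, 11 proteasome genes and 12 immediate early genes. The numbers with an unadjusted p under 0.05 were 1, 1, 1, 2 and 0, beside 20.0% of all genes, and DESeq2 called none. In HDM_CP against PBS_CP the unadjusted numbers were 2, 3, 3, 2 and 2, beside 20.7% of all genes. DESeq2 called 1 mitochondrial and 1 immediate early gene, and limma on log2(TPM + 1) called 1 small heat shock protein gene. The 2 smallest p of each list there belonged to Tcp1 and Cct2 (0.07 ± 0.03 each), Afg3l2 (0.09 ± 0.03) and Clpx (-0.12 ± 0.04), Cryab (-0.23 ± 0.09) and Hspb6 (0.27 ± 0.12), Psmb1 (0.11 ± 0.05) and Psmc1 (-0.10 ± 0.05), and Jun (-0.36 ± 0.13) and Egr2 (0.79 ± 0.29). They belonged in HDM_SAL against PBS_SAL to Tcp1 (0.08 ± 0.03) and Cct6a (0.04 ± 0.04), Clpb (0.16 ± 0.06) and Lonp1 (-0.08 ± 0.05), Hspb6 (0.27 ± 0.12) and Cryab (-0.14 ± 0.09), Psmb1 (0.11 ± 0.05) and Psmb5 (0.15 ± 0.07), and Atf3 (-0.74 ± 0.37) and Fosb (-0.89 ± 0.48).

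Of 10 genes answering to oxidants, the heme oxygenase gene Hmox1 rose (0.37 ± 0.09, adjusted p = 0.00765) and Nqo1 fell (-1.09 ± 0.28, adjusted p = 0.0131) in HDM_CP against PBS_CP, and Gclc rose (0.54 ± 0.13) and Sqstm1, an autophagy receptor gene, fell (-0.21 ± 0.06) in HDM_SAL against PBS_SAL. Of all genes 7.87% were called in HDM_CP against PBS_CP and 5.44% in HDM_SAL against PBS_SAL. The call of Hmox1 was lost without the last run (adjusted p = 0.357) and that of Nqo1 without the second (0.248). The call of Gclc was lost when any of 3 libraries was left out (adjusted p up to 0.0562). That of Sqstm1 was lost when any of 5 was (up to 0.0728). Over the other settings the adjusted p reached 0.249 for Gclc and 0.377 for Sqstm1. In HDM_SAL against PBS_SAL, of 12 clock and temperature-sensitive genes 2 rose and 7 fell, beside 3.19% of all genes called higher and 2.25% lower. The 4 with the smallest p were Npas2 (1.51 ± 0.29), Ciart (-0.55 ± 0.12), Per1 (-1.32 ± 0.30) and Per2 (-0.97 ± 0.22). Without HDM_SAL 99 only 3 fell, and without the first run none of the 12 was called in either direction. Without the second run 1 rose and 2 fell, and without the last 3 fell. In the same list 1, Nr1d1, fell in HDM_CP against PBS_CP (-0.73 ± 0.18), and was not called without the first run (adjusted p = 0.121). In the CP comparisons edgeR called none of the oxidant or clock genes. The numbers with an unadjusted p under 0.05 were 2 and 1 in HDM_CP against HDM_SAL and 5 and 8 in PBS_CP against PBS_SAL, beside 9.70% and 5.45% of all genes. DESeq2 called 1 oxidant gene in HDM_CP against HDM_SAL, and 1 oxidant and 1 clock gene in PBS_CP against PBS_SAL.

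No gene of the 11 lists was called by edgeR in either CP comparison. In HDM_CP against HDM_SAL, 6 of the 14 endoplasmic reticulum chaperone genes had an unadjusted p under 0.05, beside 9.70% of all genes. The smallest belonged to Sdf2l1 (0.48 ± 0.14, adjusted p = 0.207) and Hspa5 (0.23 ± 0.08, adjusted p = 0.311). Of the genes induced with the chaperones, Stip1 stood at 0.16 ± 0.08 and Ier5 at 0.13 ± 0.09, and of the factors Hsf2 stood at -0.19 ± 0.06. PBS_CP against PBS_SAL is the comparison with the highest group means of Hspa1a and Hspa1b. None of the 20 other inducible genes had an unadjusted p under 0.05 there, beside 5.45% of all genes, a count near that share. Of the 20, 14 had a positive log2 fold change, and their median was 0.05 against 0.002 over all genes. Chordc1 stood at 0.12 ± 0.06 and Dnajb4 at 0.13 ± 0.07 there, with adjusted p = 0.971 and 0.978. The oxidant genes Nqo1 (1.22 ± 0.28, adjusted p = 0.224) and Slc7a11, a cystine transporter gene (1.45 ± 0.40, adjusted p = 0.408), had larger fold changes, as had the co-chaperone gene Fkbp5 in the other direction (-0.52 ± 0.13, adjusted p = 0.313).

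Pseudogenes of the chaperones can take reads that belong to them. Of 12 named pseudogenes 2 had a mean of 1 TPM or more. Hspd1-ps3 averaged 2.01 TPM and Hsp25-ps1, a copy of Hspb1, 23.5 TPM with a highest value of 61.8 TPM. Hspb1 is uncertain to that extent, and no call of a member changed when its counts were summed with those of Hsp25-ps1, nor when Hspa1a and Hspa1b were summed.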

How the data were processed

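Whole-lung RNA of 27 mice was sequenced after polyA selection as paired reads of 150 bases, per the labels' protocols. The submitters' processing notes name STAR, StringTie 2 and GRCm39, without roles. The authors deposited estimated counts per gene, held as whole numbers, and TPM values per gene, which carry no depth. Estimated counts summed to 56349532 to 84451943 per library, about 4 times the read pairs planned, for a reason that the labels do not give, so counts divided by 4 were run as an alternative. Whether counting used the strand is not stated. All 27 columns of each table were used. Genes without a symbol, 310 in number, held 0.06% of the counts.

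The estimated counts were analysed with edgeR 4.0.16 in R 4.3.3: a filter (filterByExpr, minimum count 10), TMM scaling, and robust quasi-likelihood tests in 1 model of 4 group means, with Benjamini-Hochberg adjustment over 24629 genes. A standard error is the log2 fold change divided by the square root of F. Log2 CPM used a prior count of 2. P-values measure only the spread between these libraries. Correlations used 100000 permutations of libraries within groups. Adjustment was over the 45 pairs of members, and separately over the 20 pairs with Rbm3 or Cirbp. Alternatives used DESeq2 1.42.0 and limma 3.58.1. The last was run on the estimated counts by voom with quality weights, and on TPM with a pseudocount of 1 or 0.1.

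The 10 genes and all gene lists were chosen with earlier results of these data known. Of a list, all called genes were to be named if 5 or fewer, otherwise the 4 with the smallest p, and the 2 with the smallest p where none was called. For lists with none called in the CP comparisons, only some of these are printed. Promoter windows came from a RefSeq table of the GRCm38.p6 build, whose coordinates are not those of the GRCm39 gene positions.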

Additional observations from a re-analysis of the deposited data

Results flagged for a closer look

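Hspb1 in HDM_SAL 100 stood at 520.8 TPM, far from the other 5 HDM_SAL libraries, of which the nearest had 269.6 TPM. It was the 1 sample among 40 combinations of a chaperone and a group that lay this far from the rest of its group, and chance alone would flag about 1 in 20 groups. Without HDM_SAL 100 the log2 fold change of Hspb1 in HDM_CP against HDM_SAL was 0.22, in place of -0.14.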

How the results depend on the processing

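No paired analysis was possible because the library numbers do not repeat between groups. No member was called in HDM_CP against HDM_SAL, PBS_CP against PBS_SAL, the interaction or the averaged CP effect under any alternative run. In HDM_SAL against PBS_SAL, 2 members were called. Only 1, Hsp90aa1, was called with only the groups compared, with limma on log2(TPM + 1) or log2(TPM + 0.1), and without run 2 or run 3. With log2(TPM + 1) and no filter, and without run 1, 0 were called. Leaving out 1 library gave 1 to 2. In HDM_CP against PBS_CP, 2 were called. Only 1, Bag3, was called with log2(TPM + 1) and no filter and without run 1, and 0 without run 3. Leaving out 1 library gave 1 to 3. Leaving out whole runs was added after seeing the data, and the cause of these moves was not tested beyond the smaller number of libraries. Some fold changes turned sign. In HDM_CP against HDM_SAL, Bag3 was 0.000948 with log2(TPM + 1), with or without the filter, and 0.00103 with log2(TPM + 0.1), and Hsp90aa1 was 0.0316 without run 2 and -0.119 to 0.033 with 1 library left out. Hspb1 there ran from -0.396 to 0.218 with 1 library left out. In HDM_SAL against PBS_SAL, Hspd1 was -0.0101 with log2(TPM + 1), with or without the filter, and -0.0102 with log2(TPM + 0.1), Dnajb1 was 0.0235 without run 2 and Hspb1 -0.0388 without run 3. In HDM_CP against PBS_CP, Dnajb1 was 0.0441 without run 1, and without run 3 Hsph1 was -0.105, Hspb1 -0.418, Hspa8 -0.00072 and Hsp90aa1 -0.0937. With 1 library left out, Hspb1 ran from -0.0256 to 0.332 and Dnajb1 from -0.118 to 0.000796. The chaperone fold changes kept sign and call in 769 of 800 values over the other settings and in 1199 of 1215 with 1 library left out. Most of these belong to members that were not called and stayed so. Calls were lost in 14 and 9 values, all of the 2 members called in each allergen comparison. Calls were gained in 3 and 1 values, and the sign turned in 14 and 6. For the interaction and the averaged CP effect, only members with an unadjusted p under 0.05 were counted. DESeq2 called 3 members in HDM_CP against PBS_CP. Of the 16 called pairs of chaperones, 3 lost their call on TPM.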

Other observations

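Rbm3 and Cirbp, transcripts known to rise with mild cold, were set beside the chaperones after values had been seen. Cirbp ran from 105.7 to 217.8 TPM in HDM_CP, 155.3 to 210.2 in HDM_SAL, 161 to 231 in PBS_CP and 180.3 to 249.8 in PBS_SAL lungs. Over the 27 libraries, 7 of the 20 pairs of a chaperone with either gene passed an adjusted permutation p of 0.05, and all 7 were negative. Hspa8 with Cirbp gave r = -0.80 and rho = -0.76 (adjusted permutation p = 0.0002 for r), and r = -0.74 without the 2 farthest libraries. Dnajb1 with Cirbp gave r = -0.78 and rho = -0.80 (adjusted permutation p = 0.0002 for r). Hspb1 with Rbm3 gave r = -0.80 and rho = -0.57 (adjusted permutation p = 0.00173 for r), and r = -0.57 without the 2 farthest libraries. Within the 3 runs r was -0.91, -0.67 and -0.86 for Hspa8 with Cirbp and -0.46, -0.55 and -0.83 for Hspb1 with Rbm3. Within the groups r of Hspb1 with Rbm3 was -0.92 in HDM_CP and -0.93 in HDM_SAL, against 0.51 in PBS_CP and -0.07 in PBS_SAL lungs. For Hspa8 with Cirbp it was -0.95 in HDM_CP, -0.80 in HDM_SAL, -0.31 in PBS_CP and -0.97 in PBS_SAL lungs. Each group holds 6 or 7 libraries, and differences in r between groups were not tested.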
